A study of Bos taurus with 8 samples.

Results

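Proteins that a cell discards are tagged with ubiquitin and cut up by the proteasome. A UBE2 enzyme (E2, or ubiquitin-conjugating enzyme) takes ubiquitin from an activating enzyme and, with a ligase, passes it to the protein to be tagged. The core particle of the proteasome is a barrel of PSMA (alpha) and PSMB (beta) subunits, of which PSMB5, PSMB6 and PSMB7 carry the cutting sites, and it is capped by a regulatory particle of PSMC (ATPase) and PSMD (non-ATPase) subunits. Immune cells and cells exposed to interferon exchange the cutting subunits for PSMB8, PSMB9 and PSMB10, which makes the immunoproteasome, and add the PA28 cap of PSME1 and PSME2, which favours peptides for class I antigen presentation.

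These genes were examined in blood neutrophils of female Holstein Friesian cows around calving, to compare C-14, sampled 14 days before the expected calving, with C+7, sampled 7 days after it. RNA was hybridised to 8 single-colour (Cy3) Agilent arrays, 4 at each time, and neither labels nor series text give a treatment, an age or a genotype. Only 3 cows are named in the series text although each time has 4 arrays, and which array came from which animal is not given. Arrays that share an animal within a time make p-values over arrays too small, and animals shared between the times make them too large. Each of the 2 slides held 1 time, so slide and time cannot be told apart in any comparison here.

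The members were all probes whose accession carries a bovine symbol beginning with PSMA, PSMB, PSMC, PSMD, PSME or UBE2. There were 150 such probes among 43653, for 75 of 12639 named genes, 43 with a PSM symbol and 32 with a UBE2 symbol. The PSM genes comprised 7 alpha and 7 constitutive beta subunits, 6 ATPases and 11 non-ATPases of the regulatory particle, 3 chaperones that assemble its base, 5 genes of the immunoproteasome and PA28, and the gene of the activator PSME4. The symbol rule also took in PSMB11, a thymus-specific beta subunit, and PSMC3IP and PSME3IP1, which code for no proteasome subunit.

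Signal was low, and 6 arrays carried nearly all of it. Probes well above background (gIsWellAboveBG, a call of the extraction software for each spot) numbered 2225 to 4493 on replicates 1 to 3 of both times, but 780 on before-calving replicate 4 and 390 on after-calving replicate 4. In the neutrophil list 7 of 9 genes on the array had a probe well above background on at least 1 array, S100A12 among them, while S100A8 and ITGAM had none.

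Proteasome and UBE2 probes were detected more often than probes at large on each of the 6 brighter arrays, and almost never on the other 2. On before-calving replicates 1 to 4 the members had 38, 18, 51 and 1 probes well above background, and on after-calving replicates 1 to 4 they had 20, 25, 26 and 0. As a share of the 150, that was 25.3% on before-calving replicate 1, 12% on replicate 2 and 34% on replicate 3, where 11%, 6.45% and 12.5% of all probes with a gene name were detected. After calving the shares were 13.3%, 16.7% and 17.3% on replicates 1 to 3, against 6.07%, 6.26% and 7.35% of all named probes. By gene, 38 of the 75 (50.7%) had a probe well above background on at least 1 array, compared with 32.5% of all named genes. These shares are a description: probes of a gene share a transcript, and no test was made.

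**Figure D1:**
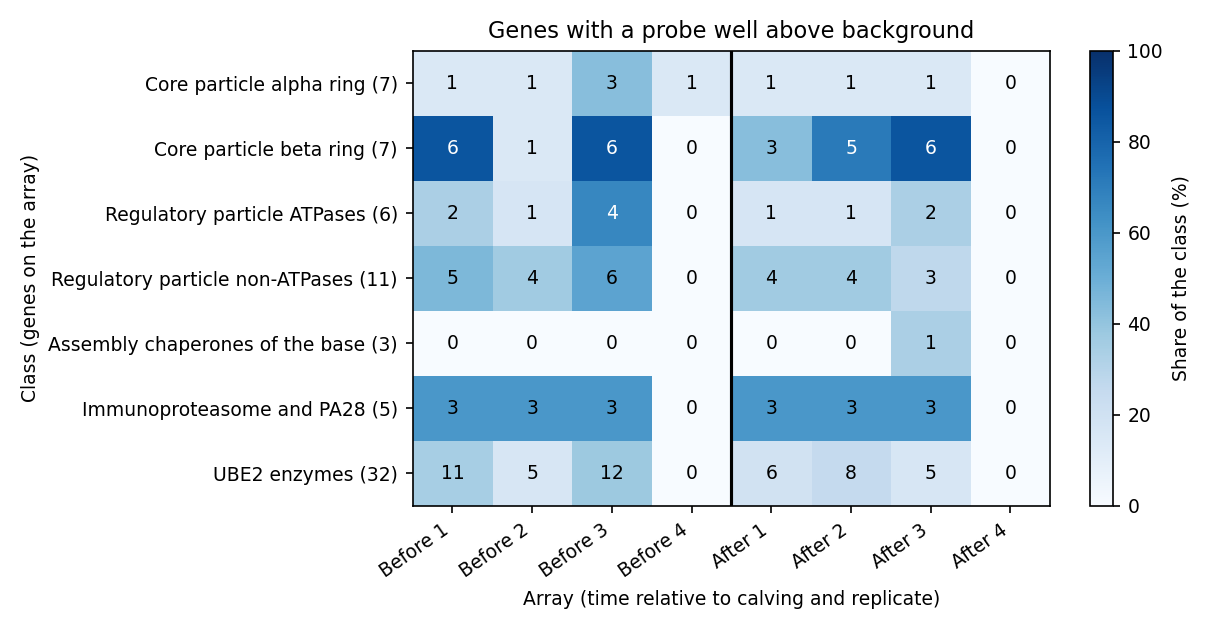
Number of genes with at least 1 probe well above background, by class (rows, with the genes of the class in brackets) and array (columns), with the colour giving the share of the class in percent. The immunoproteasome and PA28 row holds 3 of 5 genes on each of the 6 brighter arrays, while the beta ring falls to 1 of 7 on before-calving replicate 2 and no member is detected on after-calving replicate 4.

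Detection differed by class and by array. All 6 detected genes of the beta ring (PSMB2, PSMB3, PSMB4, PSMB5, PSMB6 and PSMB7) were well above background on before-calving replicates 1 and 3 and after-calving replicate 3, but PSMB4 alone was so on before-calving replicate 2. Of the alpha ring PSMA6 was the single gene found on more than 1 array. PSMB8, PSME1 and PSME2 were found on all 6 brighter arrays, taking a gene's probes together, whereas no probe of PSMB9 (3 probes) or PSMB10 (1 probe) was well above background on any array. In all, 11 members were detected before calving but not after and 1, PSMD5, after but not before. Among all named genes that were detected, 43.5% were found before calving alone and 12.1% after calving alone, shares of 28.9% and 2.63% among the detected members.

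The 37 members without a probe well above background on any array were 18 PSM and 19 UBE2 genes. They were PSMA1, PSMA2, PSMA5 and PSMB1 of the core particle, PSMC2, PSMC4, PSMD6, PSMD7, PSMD12 and PSMD14 of the regulatory particle, the base chaperones PSMD9 and PSMD10, PSMB9, PSMB10, PSMB11, PSME4, PSMC3IP and PSME3IP1. The UBE2 genes were UBE2A, UBE2C, UBE2D1, UBE2D3, UBE2D4, UBE2E1, UBE2E2, UBE2E3, UBE2F, UBE2H, UBE2K, UBE2L6, UBE2Q2, UBE2R2, UBE2S, UBE2U, UBE2V1, UBE2V2 and UBE2W. Their levels could not be measured here, which does not show that the transcripts were missing, since probes differ in how well they bind.

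No member could be compared over all 8 arrays: a test needed a probe detected on each of the 4 arrays of either time, and no member had one. Of the 442 features that met it, 0 (0%) passed at a limma adjusted p of 0.05, and 6 (1.36%) had an unadjusted p under 0.05 in limma. Testing the 75 genes there without that condition also called 0 of them. The comparison below therefore rests on the 6 brighter arrays, 3 of each time, a choice that was made after these data had been seen. Background-subtracted intensity was scaled by its 75th percentile on the array, taken over 1111 probes that every one of the 6 arrays detected. Values under a shared floor were set to it before log2 was taken. Such scaled log2 values compare arrays for the same probe and not 1 probe with another. The floor lay at -3.54, and a value there is an upper limit.

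On these arrays 16 members could be tested, of which 1 passed. UBE2G1 fell after calving and none rose (limma adjusted p of 0.05, Benjamini-Hochberg over 1954 features). Among all features 97 (4.96%) passed, of which 62 (3.17%) fell and 35 (1.79%) rose, so a single call in 16 is near the background. Those 97 calls fell to 30 without after-calving replicate 1, to 6 without after-calving replicate 2 and to 6 without after-calving replicate 3, and to 52 without before-calving replicate 3. The differences of the other 15 members did not pass. At an unadjusted limma p under 0.05, 3 members were lower (UBE2G1, PSME2 and PSMD3), beside 12.9% of all features. The after-calving arrays lay wholly below the before-calving arrays for 4 members (UBE2G1, PSME2, PSMD3 and PSMD11) and for 15.3% of all features, and wholly above them for 0 members and 10.4% of all features. The share of negative differences was 11 of 16, with 55.7% among all features, and the median difference after minus before was -0.55, with -0.07 for all features. Several members passed the filter through a single time. UBE2G1, PSMB8, PSMD11 and UBE2L3 did so through the before-calving arrays, which favours a negative difference, and PSMB6, PSMB7, PSMC1 and UBE2M through the after-calving arrays, which favours a positive one. The other 8 were well above background on all 6 arrays.

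**Figure D2:**
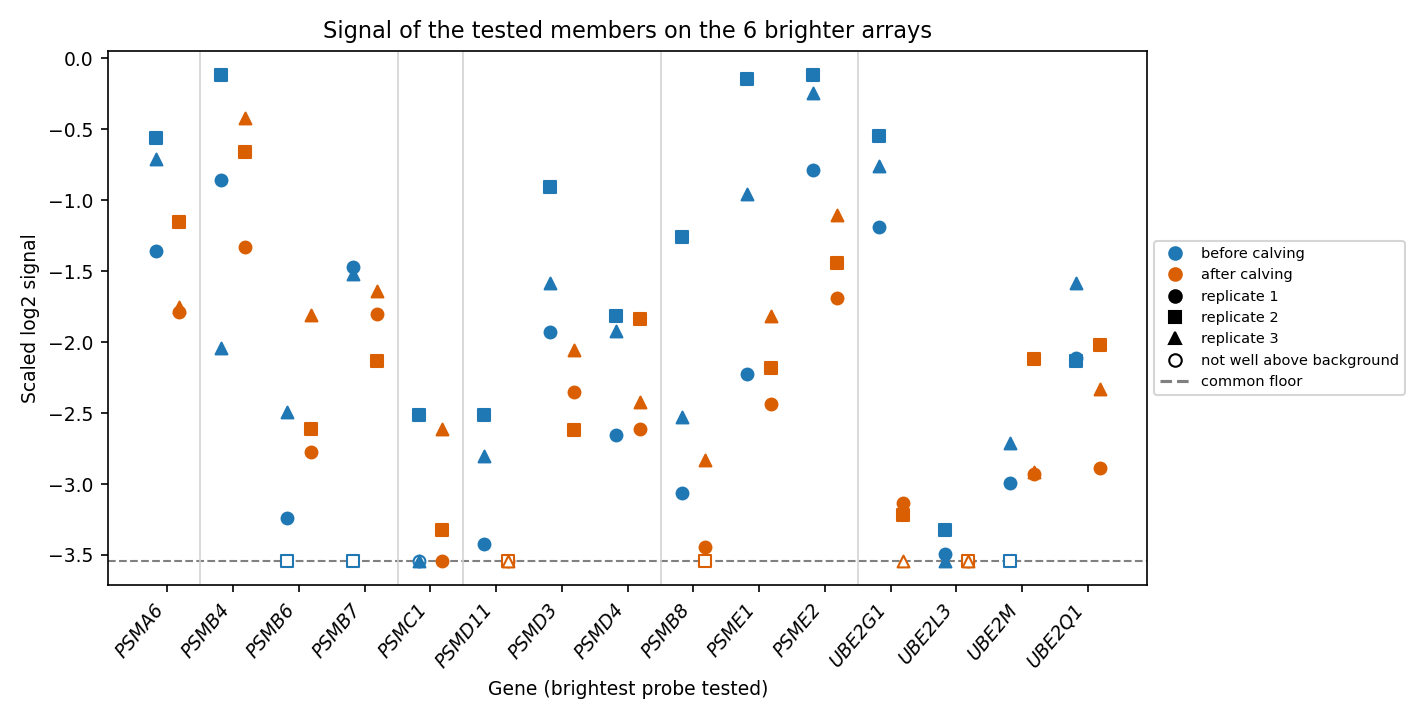
Scaled log2 signal of 15 of the 16 tested members, 1 column per gene and 1 point per array, with before-calving arrays in blue and after-calving arrays in orange. Open points mark spots not well above background, and the dashed line is the common floor at -3.54. The UBE2G1 points of the 2 times are far apart, those of PSME2, PSMD3 and PSMD11 are apart by less, and those of the other 11 genes overlap.

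UBE2G1 codes for an E2 that acts in the disposal of misfolded proteins of the endoplasmic reticulum. Its background-subtracted intensity was 241.0, 234.2, 432.3 and 12.6 on before-calving replicates 1 to 4 and 32.2, 40.1, 22.3 and 0.2 on after-calving replicates 1 to 4, before any scaling between arrays. The scaled log2 signal was -1.19, -0.55 and -0.76 on before-calving replicates 1 to 3 and -3.13, -3.22 and -3.54 on after-calving replicates 1 to 3. The 3 brighter arrays before calving thus all lay above the 3 after it. The last value is the floor, and the spot on after-calving replicate 3 was not well above background. With the floor standing in for that spot the level after calving was lower by a factor of 5.53, a lower limit that rests on 2 of 3 arrays with a measured level (log2 difference -2.47, SE 0.22, limma adjusted p = 0.0111, n = 3 arrays at each time). UBE2G1 entered the test through the before-calving arrays, where it is high, and is not among the features detected on all 6 arrays, where no member passed.

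A second UBE2G1 probe gave nearly the same picture. Its scaled values were -1.61, -0.84 and -1.03 before calving and -3.54, -3.27 and -3.54 after it, so the times again did not overlap, with 2 after-calving arrays at the floor. When each probe was its own feature, its difference of -2.29 (SE 0.24) passed as well (limma adjusted p = 0.0163), among 73 of 2204 probes (3.31%) that fell. The 2 probes measure the same RNA and are not independent. Of the other 2 UBE2G1 probes, one was well above background on before-calving replicate 1 alone and one on no array. The call was lost without after-calving replicate 2 (-2.51, adjusted p = 0.0688) or without after-calving replicate 3 (-2.35, adjusted p = 0.0558), each leaving 2 arrays of that time, with the processed signal (-2.05, adjusted p = 0.172), without the detection filter (-2.47, adjusted p = 0.379) and with the series matrix (-1.11, adjusted p = 0.958), all in limma.

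Some markers of other blood cells also fell on these arrays. Of 6 T cell markers on the array 3 were tested and 2 fell, CD247 (log2 difference -2.66) and CD3E, whose probe none of the 3 brighter after-calving arrays detected and whose level was at least 4.08-fold lower there. The summed T cell level, as log2 of the summed scaled signal, was 1.01 to 2.13 before calving and -0.97 to -0.80 after it. CD3D and CD2 were not detected on any array. Of 4 natural killer cell markers 2 were tested and GNLY fell, by a log2 difference of -1.67 that is a lower limit in size since all 3 after-calving values are the floor, and the single tested markers of monocytes (CSF1R, -1.64) and eosinophils (ALOX15, -3.05) fell too. Their summed levels ran from -1.69 to -1.05, -1.0 to -0.14 and 0.04 to 0.44 before calving and were -2.54 (the floor of both genes summed), -2.37 to -2.04 and -2.86 to -2.74 after it. KLRD1, NCR1, CD163, VCAN and CCR3 were not detected on any array. Of 2 tested B cell markers none passed (summed level -1.32 to 0.16 before and -0.93 to -0.54 after). The part of these cells in the values of UBE2G1 or any other member was not tested, and in such bulk RNA fewer cells of a type and less RNA per cell cannot be told apart. Of the 5 tested neutrophil markers 2 passed. S100A12 rose (2.27), and MMP9 rose at least 4.33-fold from a level not well above background on the before-calving arrays. S100A9 (0.69), CXCR2 (-0.08) and CXCR1 (-1.27, limma adjusted p = 0.0604) did not pass. The S100A9 value is a lower limit, since all 3 before-calving values are the floor. CXCR2 was at the floor on before-calving replicates 1 and 3 and after-calving replicates 2 and 3, so its difference was held near 0. The after-calving arrays lay all below for CXCR1, as for 15.3% of all features. They lay all above for S100A12, MMP9 and S100A9, as for 10.4% of all features. The summed level of the 5 neutrophil markers was 3.59 to 4.67 before and 6.13 to 6.38 after calving. It is mostly that of S100A12 (3.48 to 4.59 and 6.11 to 6.37). Platelet markers were not detected, and the erythroid marker HBA had a difference of 1.80 that did not pass (limma adjusted p = 0.231).

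**Figure D3:**
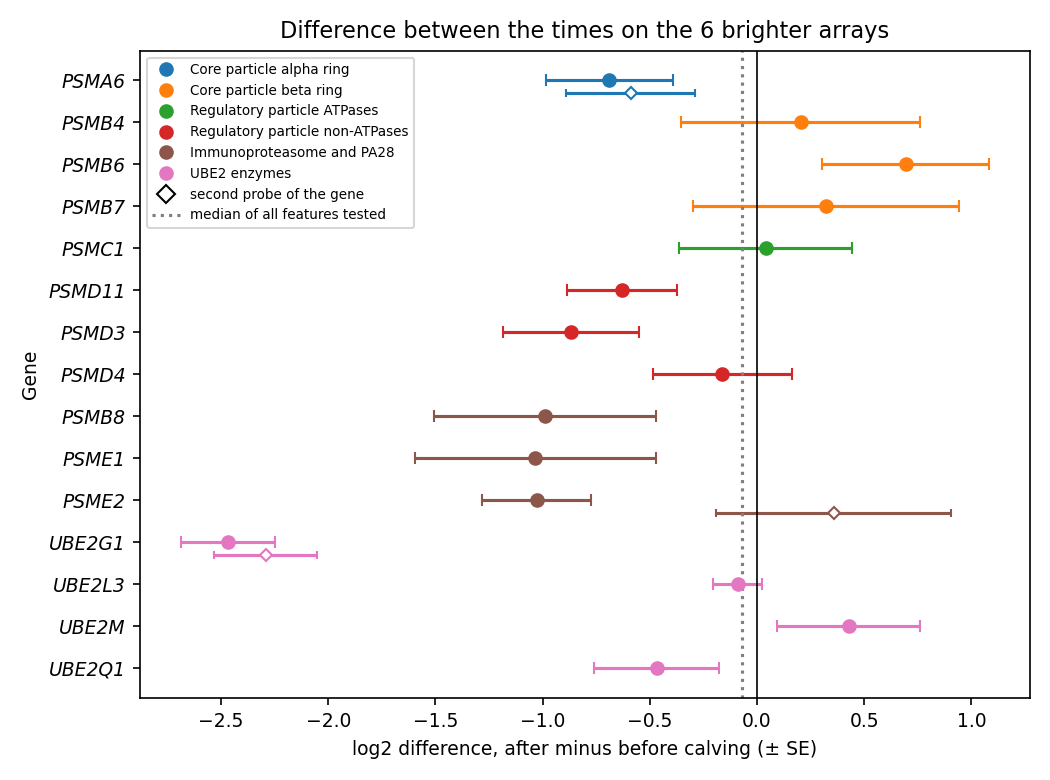
Log2 difference after minus before calving with its SE for 15 of the 16 tested members (filled circles, coloured by class) and for the second probe of 3 genes (open diamonds), on the 6 brighter arrays. The dotted line is the median of all features, -0.07. UBE2G1 lies far to the left with both its probes. The 3 tested genes of the immunoproteasome and PA28 lie near -1, but the second probe of PSME2 lies right of 0. The 3 beta ring genes lie right of 0. PSMB4 and PSMB7 turn negative when scaling is taken over all probes, where the median of all features, at -0.58, lies lower still. PSMB4 is at -0.32 without before-calving replicate 3, and PSMB7 at -0.36 without before-calving replicate 2.

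The 3 tested genes of the immunoproteasome and PA28 had like differences, none of which passed. PSME2, a subunit of PA28, had scaled log2 values of -0.79, -0.12 and -0.25 on before-calving replicates 1 to 3 and -1.69, -1.44 and -1.10 after calving, so the times did not overlap. Its difference was -1.03 (SE 0.25, limma adjusted p = 0.0924), the smallest adjusted p among the members after UBE2G1. Its second probe disagreed, with -3.49, -3.54 and -1.69 before and -2.49, -2.70 and -2.46 after calving, a difference of 0.36 (SE 0.55), and with before-calving replicate 2 at the floor.

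PSME1, the partner of PSME2 in PA28, differed by almost the same amount but with a wider spread. Its values were -2.22, -0.15 and -0.96 before calving and -2.43, -2.18 and -1.82 after it, so before-calving replicate 1 lay within the after-calving range. The difference was -1.03 (SE 0.56, limma adjusted p = 0.369), and -0.55 without before-calving replicate 2. The 2 genes lie near each other in the cattle genome, with 1 protein-coding gene, EMC9, between them.

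PSMB8, the immunoproteasome counterpart of PSMB5, was at -3.06, -1.26 and -2.53 before calving and at -3.44, -3.54 and -2.83 after it. The times overlapped, the after-calving replicate 2 spot was not well above background, and the difference was -0.99 (SE 0.52, limma adjusted p = 0.358). Without before-calving replicate 2 it was -0.48. A second PSMB8 probe was well above background on before-calving replicates 1 and 3 and after-calving replicates 2 and 3, too few arrays for a test. The median of the 3 genes was -1.03, beside -0.07 for all features. PSMB8 passed the filter through the before-calving arrays alone, which favours a negative difference. Of the 3 genes 1, PSME2, had all after-calving arrays below the before-calving arrays, as had 15.3% of all features.

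The constitutive cutting subunits could be followed in part. PSMB6 was at -3.24, -3.54 and -2.49 before calving and at -2.77, -2.61 and -1.81 after it, a difference of 0.69 (SE 0.39, limma adjusted p = 0.386). PSMB7 was at -1.47, -3.54 and -1.52 before and -1.80, -2.13 and -1.64 after calving. In both genes the lowest array was before-calving replicate 2, where neither spot was well above background. The PSMB7 difference was 0.32 (SE 0.62, limma adjusted p = 0.805) and turned to -0.36 without that array, while PSMB6 stayed positive at 0.47. The second PSMB7 probe was well above background on before-calving replicates 1 and 3 alone.

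PSMB5 was well above background on 4 arrays and could not be tested. Its background-subtracted intensity was 24.1, 15.5, 51.1 and -1.6 on before-calving replicates 1 to 4 and 13.2, 40.1, 36.0 and -5.9 on after-calving replicates 1 to 4. The readings above background were those on before-calving replicates 1 and 3 and after-calving replicates 2 and 3. These intensities are not scaled between arrays and so do not compare the times. PSMB9 and PSMB10, the counterparts of PSMB6 and PSMB7, were not measurable. With PSMB5, the counterpart of PSMB8, untested as well, no pair had both of its genes tested between the times.

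Of the remaining core subunits PSMB4 and PSMA6 were tested, and neither passed. PSMB4, a structural beta subunit, had values of -0.86, -0.12 and -2.04 before calving and -1.33, -0.66 and -0.42 after it. Its 3 before-calving arrays spanned the whole after-calving range, and the difference was 0.20 (SE 0.56, limma adjusted p = 0.874). Without before-calving replicate 3 it turned to -0.32. PSMA6, an alpha subunit, was at -1.36, -0.56 and -0.71 before and -1.79, -1.15 and -1.75 after calving. The times overlapped through before-calving replicate 1, and the difference of -0.69 (SE 0.30, limma adjusted p = 0.271) was matched by -0.59 (SE 0.30) on a second PSMA6 probe.

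Among the regulatory particle genes the differences of 3 non-ATPases were negative and that of 1 ATPase was near 0, without any passing. PSMD3, a scaffold subunit of the lid, was at -1.93, -0.90 and -1.58 before calving and at -2.35, -2.62 and -2.05 after it. The times did not overlap, and the difference was -0.87 (SE 0.32, limma adjusted p = 0.215). With the processed signal, which carries a surface correction on before-calving replicate 3, it was -0.22.

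PSMD4, the subunit that binds ubiquitin chains, was at -2.65, -1.81 and -1.92 before calving and at -2.61, -1.84 and -2.42 after it, with ranges that nearly coincide. Its difference was -0.16 (SE 0.32, limma adjusted p = 0.811). PSMD11, another lid subunit, was well above background on all 3 brighter arrays before calving and on none after it, at -3.42, -2.51 and -2.80 against the floor. This is a level at least 1.55-fold lower after calving (limma adjusted p = 0.251). The ATPase PSMC1 lay at the floor on 3 of 6 arrays, with a difference of 0.04 (SE 0.40).

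Besides UBE2G1, 4 UBE2 genes were tested and none passed. UBE2Q1 was at -2.11, -2.13 and -1.58 before calving and at -2.89, -2.02 and -2.33 after it, with overlapping times and a difference of -0.47 (SE 0.29, limma adjusted p = 0.422). UBE2M, which conjugates NEDD8, had a difference of 0.43 (SE 0.33, limma adjusted p = 0.532) with before-calving replicate 2 at the floor. Without that array it was 0.20, and without after-calving replicate 2 it was 0.16. UBE2L3 was well above background before calving alone. Its before-calving values lay at or just above the floor and its after-calving values at it. The difference of -0.09 (SE 0.11, limma adjusted p = 0.687) thus sets no limit on the change. UBE2D2 was not tested because its spot on after-calving replicate 1 was flagged as an outlier. Before any scaling between arrays its intensities were 79.4, 41.9 and 130.2 on before-calving replicates 1 to 3. On after-calving replicates 2 and 3 they were 60.9 and 26.2, the last not well above background. Such unscaled values do not compare the times.

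The other members with a role in the endoplasmic reticulum were detected too thinly for a test. UBE2G2, the closest relative of UBE2G1, was well above background on 4 arrays over its 2 probes. One probe gave intensities of 37.6, 7.5 and 73.4 on before-calving replicates 1 to 3 and 10.0, 29.1 and 20.0 after calving, and the other gave 45.7, 21.1 and 77.2 before and 20.0, 11.4 and 17.3 after. These intensities are not scaled between arrays. UBE2J2 was also well above background on 4 arrays, and UBE2J1 on before-calving replicate 3 alone. UBE2T was found on that same array, and the cell cycle E2 genes UBE2C and UBE2S on none. In all, 22 members were detected but not tested, of which 12 were detected at both times and 7 on a single array.

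The array order within the tested members was uneven. Before-calving replicate 2 was the highest of the 6 arrays for 12 of 16 members and lay at the floor for 3, UBE2M, PSMB6 and PSMB7. Among all 1954 features that array was the highest for 39.6% and at the floor for 22.7%. No member was highest on after-calving replicate 1. Before-calving replicate 2 was the highest array for the class medians of the immunoproteasome and PA28 and of the regulatory particle, and not for those of the core particle or the UBE2 enzymes. Relative to the median of all features, the median of the 3 immunoproteasome and PA28 genes was 0.41, 2.38 and 1.62 on before-calving replicates 1 to 3. After calving it was 0.26, 0.43 and 0.68. The median of the 4 core particle genes was 1.22, 0.48 and 0.80 before and 0.90, 0.97 and 0.80 after calving, lowest on before-calving replicate 2. On that array PSMB6 and PSMB7 were at the floor, while PSMB4 and PSMA6 had their highest values of the 6 arrays. The core genes thus did not share the order of their median. The median of the 4 regulatory particle genes was -0.40, 0.37 and 0.22 before and -0.39, -0.36 and -0.02 after calving. That of the 5 UBE2 genes was 0.52, 0.40 and 1.00 before and -0.24, 0.49 and -0.42 after.

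Relative to the median of all features, the class medians of the difference were 0.33 for the core particle, -0.33 for the regulatory particle, -0.96 for the immunoproteasome and PA28 and -0.40 for the UBE2 enzymes. The SD of the class medians among arrays of a time was 0.27, 0.32, 0.72 and 0.41 in turn, and no difference between classes was tested. Leaving out 1 array in turn moved the UBE2 median between -0.59 and -0.17. It moved that of the immunoproteasome and PA28 between -1.31 and -0.55, the last without before-calving replicate 2. The filter also bears on these medians. PSMB6 and PSMB7 of the core particle, PSMC1 and UBE2M entered through the after-calving arrays, which favours a positive difference. PSMB8, PSMD11, UBE2G1 and UBE2L3 entered through the before-calving arrays, which favours a negative one. Among features well above background on all 6 arrays the medians were -0.14, -0.41, -0.93 and -0.55, in the same order of classes. Each of these rests on only 2 genes. Among the 8 members well above background on all 6 arrays, where the filter favours neither time, 7 differences were negative, with 54.6% negative among the 994 such features. Of the 8, PSME2 and PSMD3 had all after-calving arrays below, as had 17.5% of those features, and 0 had them above (9.96%). None of the 8 passed in a fit of those features alone, where 36 (3.62%) passed, 21 (2.11%) lower and 15 (1.51%) higher, and PSME2 had the smallest adjusted p (limma, 0.157).

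**Figure D4:**
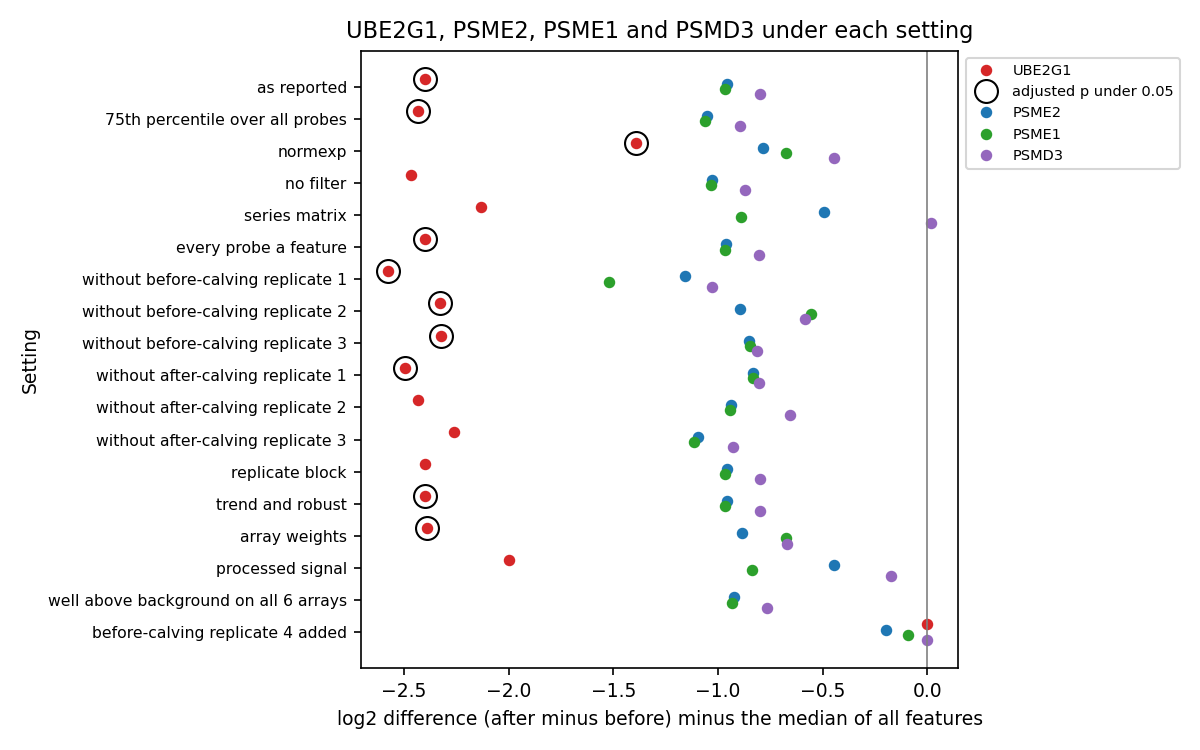
Log2 difference after minus before calving, less the median of all features, for UBE2G1, PSME2, PSME1 and PSMD3 under each setting (rows), with black rings for a limma adjusted p under 0.05. UBE2G1 lies between -2.57 and -1.39 except with before-calving replicate 4 added, which changes both the scaling and the floor and puts it at 0, and PSMD3 is at 0.02 with the series matrix.

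Directions of the smaller differences depended on the scaling. With scaling over all probes, where the median of all features shifted to -0.58, 15 of 16 members were negative, and in the series matrix, where that median was 1.02, 2 were negative, UBE2G1 (-1.11) and PSMB8. Relative to those medians 11 and 9 members lay below.

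Other genes of the pathway, from a list of 38 symbols, gave 8 tested genes, of which ISG15 passed. ISG15, an interferon-induced modifier that resembles ubiquitin, was at -1.21, 0.15 and -0.55 before calving and at -3.54, -3.54 and -3.09 after it, and fell by 2.86 (SE 0.38, limma adjusted p = 0.0244), a lower limit since 2 after-calving values are the floor and the gene passed the filter through the before-calving arrays. The enzymes that activate and conjugate it, UBA7 and UBE2L6, were detected on no array. Of the ubiquitin genes UBB was at 0.98, 0.41 and 0.41 before and 0.11, 0.72 and 0.14 after calving (difference -0.27, SE 0.26), with overlapping times. Also tested were the proteasome assembly factor POMP (-0.49), the ubiquitin receptor ADRM1 (0.49), the transcription factors NFE2L1 (-0.38) and NFE2L2 (-0.16), and VCP (0.27), an ATPase that extracts tagged proteins. None of these passed, the smallest limma adjusted p being 0.506 (ADRM1). POMP and ADRM1 were at the floor on before-calving replicate 2. NFE2L2 was there on before-calving replicate 1 and on every after-calving array, so its difference was held near 0.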

How the data were processed

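The deposited scanner files hold spot intensity written by Agilent Feature Extraction, version 10.10.1.1 per the file headers and 9.1 per the submitters' processing notes, with probe annotation on build UMD 3.1. Per the file headers the intensity is background-subtracted, and the processed intensity of before-calving replicate 3 also carries a multiplicative surface correction (root mean square 1.83, 0 on the others). The deposited series matrix holds log2 values, and its rows were matched through the order of probe names in the scanner files (lowest correlation of differences between arrays above 0.999), so direction is known while its centring on probes and scaling are read from the values. Its column medians ran from -0.128 to 0.0289, with -2.61 on before-calving replicate 3.

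Control spots (1417) and outlier flags were left out, and spots of a probe averaged. Accessions were named through RefSeq genes of ARS-UCD2.0 (26832 probes with a symbol, 16821 without). For a test, a probe had to be detected on every array of either time. A gene was its brightest such probe. The fits used R 4.3.3 and its package limma 3.58.1 (lmFit and eBayes, two-sided, Benjamini-Hochberg), a script tested on simulated data. The 8 arrays used log2 processed intensity scaled over 118 probes. The 6 brighter arrays, each with over 2000 detected probes, used the background-subtracted intensity, as in the report. In the normexp alternative (offset 50) the median spot signal took the place of the mean, which was not used here.

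Members and lists were chosen with earlier results of these data known. Named with array values were members past the threshold, members well above background on all 6 arrays and the paired cutting subunits. The number of arrays limits the precision. No sequence is printed. The values of 1 tested member and of 1 other gene of the pathway are not reported here, and counts and medians include them.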

Additional observations from a re-analysis of the deposited data

Results flagged for a closer look

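An array lay far outside its group in 1 of 32 groups of 4 arrays, where about 1 in 20 is what chance gives. A group was a member probe at 1 time, detected on at least 3 of 4 arrays, or the number of detected member probes at 1 time. On the scale of all 8 arrays (processed signal), PSME1 before calving was at -3.25, -0.41, -3.74 and -3.71 on replicates 1 to 4, so replicate 2 stood apart by 0.851 of the whole range. The replicate 4 spot was not well above background, and replicate 3 carries the surface correction. On the background-subtracted scale the gap between replicates 2 and 3 was smaller (-0.15 and -0.96).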

How the results depend on the processing

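The 1 member called on the 6 brighter arrays, UBE2G1, was also called with scaling over all probes, normexp, trend and robust fitting, array weights and every probe as a feature (2 UBE2G1 probes). Leaving out 1 array in turn gave 0 to 1 members, with 0 without after-calving replicate 2 or 3. It gave 0 without the detection filter, with the series matrix, with the processed signal and among features detected on all 6 arrays, where UBE2G1 is not tested. With before-calving replicate 4 added it gave 0: scaling then rests on 440 probes detected on all those arrays, which puts UBE2G1 before calving at -2.69 to -2.19, under a floor of -2.16, and 12 of 16 members at no difference. The replicate block gave 0 members (UBE2G1 adjusted p = 0.108, limma) and 0 of all features. No label ties the replicate numbers to animals, and deviations of same-numbered arrays correlated at 0.0847, -0.262 and 0.262 over the 6 arrays and at 0.596, 0.229, -0.298 and 0.459 over 8, so the numbers were not taken as pairs. Over 8 arrays members were tested only without the filter (75 tested, 0 called).

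Class medians relative to all features moved as follows. The core particle (0.33) was at 0 without a filter, 0.87 in the series matrix, 0.65 with the processed signal, -0.14 among features detected on all 6 arrays, 0 with before-calving replicate 4 added, and 0.053 to 0.52 leaving out 1 array (lowest without before-calving replicate 2). The regulatory particle (-0.33) was at 0 without a filter, 0.16 in the series matrix and 0 with that array added, where the immunoproteasome and PA28 median (-0.96) was -0.093. The UBE2 median (-0.40) was 0 without a filter, -0.046 with the processed signal and 0 with that array added. All calls split into 35 higher and 62 lower, 13 and 86 with scaling over all probes, 38 and 38 with normexp, 29 and 29 with trend and robust fitting, 48 and 115 with array weights, 5 and 0 in the series matrix, 7 and 4 with the processed signal, 2 and 0 without a filter, and 20 and 10, 4 and 2, and 5 and 1 without after-calving replicates 1, 2 and 3 in turn. The cause of these shifts was not tested, and low signal over background limits every value.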

Other observations

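Single spots stood out among members too thinly detected for a test, and were picked after their values were seen. Their intensities are not scaled between arrays. PSMA3, an alpha subunit, had a background-subtracted intensity of 25.2 on before-calving replicate 4, the only member probe well above background there, against -6.5 to 2.8 on the other 7 arrays. PSMD8, a lid subunit, read 181.6 on after-calving replicate 2 on one of its 3 probes, against -3.1 to 29.8 on the other 7 arrays. UBE2B, an E2 that acts with ligases in DNA repair and histone marking, read 79.5 and 163.9 on before-calving replicates 1 and 3, 8.6 on replicate 2, and 16.1, 45.1 and 13.1 on after-calving replicates 1 to 3.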
